A study of Ovis aries with 9 samples.

Results

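The miR-200 family was measured here in small RNA sequencing libraries made from the sperm of F1 rams, the male lambs of ewes fed in 3 different ways. Its members were the 3 ovine miRNAs whose names the annotation carries, oar-mir-200a and the related oar-mir-200b and oar-mir-200c, out of 105 ovine miRNA names in all. Every distinct sequence with one of these names in its annotation was taken, and a sequence with more than 1 of them was counted once in the family. This gave 165 distinct sequences in OVER, 65 in RES and 115 in CON, and 235 in any library, of between 1249810 and 1311597 distinct sequences per library.

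The groups were OVER, rams whose mothers were overfed, RES, rams whose mothers had restricted feed, and CON, rams whose mothers had standard feed, all wild type, with 3 labelled samples each. The labels used here give no age and do not say how many rams or ejaculates are behind a sample. All the sperm had been kept on ice in a detergent buffer that lyses somatic cells before RNA extraction. Short RNA was selected by size before library preparation, per the labels' protocols.

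Within a group the 3 deposited tables were copies of each other in sequences and read counts, and no miR-200 sequence was annotated differently among them. Each group was therefore counted as 1 library. No spread between rams can be estimated, no difference between groups could be tested, and all intervals below are exact 95% intervals that cover counting error only. The libraries held 8287937 reads in OVER, 13160116 in RES and 9983895 in CON. Of these, 16.7% in OVER, 11.6% in RES and 8.41% in CON were miRNA reads, and in each library between 34.3% and 40.9% of the miRNA reads carried the class name miRNA with no ovine miRNA name.

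MicroRNAs are short RNAs that guide Argonaute proteins to messenger RNAs, which they recognise mainly through the seed, bases 2 to 8 of the miRNA. The miR-200 family is the classical epithelial family: it represses the transcription factors ZEB1 and ZEB2, which would otherwise shut down E-cadherin, and so helps to keep epithelial cells epithelial. In mammals miR-200a, miR-200b and miR-429 come from one precursor transcript and miR-200c and miR-141 from another. Sperm meet epithelium throughout the male tract, in the epididymis and the accessory glands, and in mice take up small RNAs from vesicles that the epididymal epithelium releases.

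In the sheep annotation of RefSeq (assembly ARS-UI_Ramb_v3.0), all 3 members had an entry. MIR200A and MIR200B were next to each other, between TTLL10 and C12H1orf159, and MIR200C lay apart, between LOC114114279 and PTPN6. The genome build of the deposited tables is not given in the sources used here, so no coordinates are printed.

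The most read form of each member shows what separates the 3 miRNAs and what does not. Sequences are DNA letters as deposited, written 5′ to 3′, and capitals mark the seed.
miR-200a-3p, 21 nt: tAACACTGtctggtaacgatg
miR-200a-3p, 23 nt: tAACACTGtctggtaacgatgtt
miR-200b-3p, 23 nt: tAATACTGcctggtaatgatgac
miR-200c-3p, 23 nt: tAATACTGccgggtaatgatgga
Over bases 1 to 17, miR-200a differed from miR-200b by C4T, T9C and C17T, the miR-200a base first and positions counted from the 5′ end. The change at base 4 lies in the seed, so miR-200a has a seed of its own and miR-200b and miR-200c share theirs. Over the same bases, miR-200b and miR-200c differed by T11G alone.

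Reads that end before the last bases of miR-200b and miR-200c can be told apart only by base 11. A pair of 21 nt sequences, which both carried the joint name of oar-mir-200b and oar-mir-200c, shows this.
miR-200b letters, 21 nt: tAATACTGcctggtaatgatg
miR-200c letters, 21 nt: tAATACTGccgggtaatgatg
The first had 1532 reads in OVER, 239 in RES and 474 in CON. The second had 74 reads in OVER, 9 in RES and 23 in CON. The joint name therefore covered mostly miR-200b: of its reads that held the letters of either member, 95% in OVER, 96% in RES and 94.7% in CON held those of miR-200b.

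Whether a miR-200b read was named at all went with its length. Its 2 most read forms, 23 and 24 nt long, carried only the class name miRNA, and the shorter 22 nt and 21 nt forms carried the ovine name.
miR-200b-3p, 24 nt: tAATACTGcctggtaatgatgact
The 23 nt form printed above had 6941 reads in OVER, 1753 in RES and 5913 in CON, and this 24 nt form had 1750, 897 and 2612 reads in OVER, RES and CON. Every miR-200b-3p read with the ovine name ended at base 22 or before, 2444 reads in OVER, 374 in RES and 1173 in CON. Every one without it ended at base 23 or later, 11305 reads in OVER, 3492 in RES and 10696 in CON. Counted by name, the family thus left out most of its miR-200b.

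The family was for this reason counted in 2 ways. By name, all rows with a member's name were summed, and a row with 2 names counted for both members. Such rows held 60.3% of oar-mir-200b reads in OVER, 58.3% in RES and 38.5% in CON. They held 57.1% of oar-mir-200c reads in OVER, 55.1% in RES and 29.8% in CON. By letters, a count added after these rows were seen, every read of the miRNA class that held bases 3 to 17 of a member's mature form was given to that member, whatever its name. Levels are given as RPM, the reads in every 1000000 reads of the library, and as a share of miRNA reads. Ratios between libraries use CPM, the reads in every 1000000 of the miRNA class, scaled by TMM factors of edgeR over all named miRNAs.

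By name, the family was lowest in RES on both scales. It held 7433 reads in OVER, 1512 in RES and 4124 in CON, or 897 RPM in OVER, 115 RPM in RES and 413 RPM in CON. As a share of miRNA reads it was 0.538% in OVER (0.526 to 0.551%), 0.0989% in RES (0.0940 to 0.104%) and 0.491% in CON (0.477 to 0.507%). The intervals of all 3 libraries lie apart, with OVER and CON close together and RES far below. In bulk libraries, fewer epithelial cells or vesicles and less of this RNA in each cannot be told apart.

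Each member had the same order in RPM, OVER above CON above RES. Oar-mir-200a had 423 RPM in OVER, 66.8 RPM in RES and 161 RPM in CON. Oar-mir-200b had 326 RPM in OVER, 32.6 RPM in RES and 132 RPM in CON. Oar-mir-200c had 344 RPM in OVER, 34.5 RPM in RES and 171 RPM in CON. By name the 3 members lay close to each other in OVER and in CON, while in RES oar-mir-200a stood above the others. Part of what counted as oar-mir-200c held the letters of miR-200b, in rows with both names. Such reads were 1543 of 2854 in OVER, 240 of 454 in RES and 481 of 1703 in CON. By letters miR-200c-3p had 156 RPM in OVER, 16.03 RPM in RES and 121 RPM in CON. MiR-200b-3p then had 1659, 294 and 1189 RPM in OVER, RES and CON, so this closeness did not hold by letters.

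Counted by letters, the family was larger and miR-200b was its main member. It held 18579 reads in OVER, 4974 in RES and 14730 in CON, which is 1.35% of miRNA reads in OVER (1.33 to 1.36%), 0.325% in RES (0.317 to 0.335%) and 1.76% in CON (1.73 to 1.78%). Of these reads 60.9% in OVER, 70.2% in RES and 72.6% in CON had no ovine miRNA name. RES remained the lowest library, and CON now had a larger share than OVER, the reverse of the order by name.

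MiR-200b-3p had 13749 reads in OVER, 3866 in RES and 11869 in CON by letters, of which 17.8%, 9.67% and 9.88% carried its name in OVER, RES and CON. MiR-200a-3p had 2761 reads in OVER, 749 in RES and 1255 in CON, all of them named. MiR-200c-3p had 1297 reads in OVER, 211 in RES and 1212 in CON, all but 1 read in OVER and 1 in CON named. The annotation gap thus lay with miR-200b, whose level in OVER was 1659 RPM by letters and 326 RPM by name.

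Among the 3′ arm reads of the family, miR-200b made up 77.2% in OVER (76.6 to 77.8%), 80.1% in RES (79.0 to 81.2%) and 82.8% in CON (82.2 to 83.4%). MiR-200a made up 15.5% in OVER (15.0 to 16.0%), 15.5% in RES (14.5 to 16.6%) and 8.75% in CON (8.30 to 9.23%). MiR-200c made up 7.28% in OVER (6.91 to 7.68%), 4.37% in RES (3.81 to 4.99%) and 8.45% in CON (8.0 to 8.92%). The miR-200a share was thus larger in both OVER and RES than in CON, and the miR-200c share was smallest in RES.

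**Figure D1:**
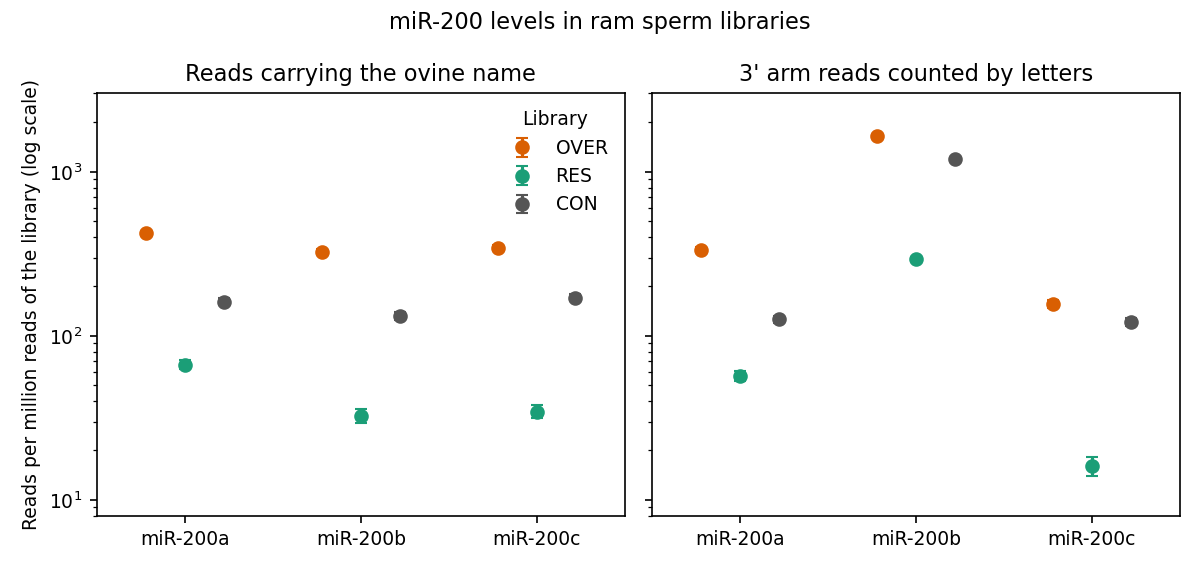
Levels of the 3 members in OVER, RES and CON, in RPM on a log axis, by ovine name (left) and by the letters of the 3′ arm form (right). Bars are exact 95% counting intervals and are mostly smaller than the points. RES is the lowest library for each member in both panels, and miR-200b stands well above the other two only when counted by letters, at 1659 RPM in OVER, 294 RPM in RES and 1189 RPM in CON.

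RES was compared with CON first among the named miRNAs, and all 3 members were at least 2-fold lower there. The background was the 74 named miRNAs, members included, that reached 100 reads summed over RES and CON. Of these, 14, or 18.9%, were at least 2-fold lower in RES and 2.7% at least 2-fold higher. The 14 include the 3 members. The median log2 ratio of the 74 was 0.02. The log2 ratio of RES over CON was -1.40 for oar-mir-200a, -2.15 for oar-mir-200b and -2.43 for oar-mir-200c. Rows with both names count for oar-mir-200b and oar-mir-200c alike, so their ratios by name are not separate values. Counted from the lowest, the members took places between 4 and 9 of 74. Below oar-mir-200c were oar-mir-181a-2, oar-mir-221 and oar-mir-181a-1 at log2 ratios of -2.82, -2.80 and -2.54, which rest on 19, 83 and 22 reads in RES. At the other end oar-mir-148a, oar-mir-30b and oar-mir-3958 stood at 1.26, 1.06 and 0.89.

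By letters the distance between RES and CON differed more among the members. MiR-200a-3p had a CPM of 609 in RES and 1469 in CON, 2.41-fold lower, with a log2 ratio of -1.27 (-1.40 to -1.14). MiR-200b-3p had a CPM of 3142 in RES and 13894 in CON, 4.42-fold lower, with a log2 ratio of -2.14 (-2.20 to -2.09). MiR-200c-3p had a CPM of 171 in RES and 1419 in CON, 8.27-fold lower, with a log2 ratio of -3.05 (-3.27 to -2.84). The 3 intervals do not overlap, so the order from miR-200a to miR-200c is beyond counting error in these libraries. For miR-200b, the ratio was nearly the same by name and by letters although most of its reads are in only 1 of the 2 counts.

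OVER was close to CON by name. None of the 3 members was 2-fold apart, where 19.7% of 76 named miRNAs, members included, were. Of the 76, 10.5% were higher in OVER and 9.21% lower by this measure, and their median log2 ratio was 0.03. The log2 ratios of OVER over CON were 0.15 (0.06 to 0.23) for oar-mir-200a, 0.05 (-0.04 to 0.15) for oar-mir-200b and -0.23 (-0.32 to -0.15) for oar-mir-200c. Here too, rows with both names count for oar-mir-200b and oar-mir-200c alike. Scaled by all reads of the library instead, OVER exceeded CON at least 2-fold for all 3 members. It did so for 49 of the 76 named miRNAs, with none 2-fold lower, against 8 higher and 7 lower within the class. That scaling moved the median of all named miRNAs by 1.25 on the log2 scale.

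Counted by letters, miR-200b and miR-200c were both lower in OVER than in CON and miR-200a was not. By name, oar-mir-200b had been level with CON and oar-mir-200c already below it. MiR-200b-3p had a CPM of 8161 in OVER and 13894 in CON, 1.70-fold lower, with a log2 ratio of -0.77 (-0.80 to -0.73). MiR-200c-3p had a CPM of 770 in OVER and 1419 in CON, 1.84-fold lower, with a log2 ratio of -0.88 (-1.0 to -0.77). MiR-200a-3p had a CPM of 1639 in OVER and 1469 in CON, with a log2 ratio of 0.16 (0.06 to 0.26). MiR-200b and miR-200c were thus lower in OVER than in CON within the miRNA class, short of 2-fold, and miR-200a was slightly higher. In RPM all 3 were higher in OVER than in CON, by 1.40-fold for miR-200b, 1.29-fold for miR-200c and 2.65-fold for miR-200a.

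OVER was also set against RES. Of 80 named miRNAs, members included, 27.5% were at least 2-fold apart, 18.8% with OVER above RES and 8.75% with OVER below. The median log2 ratio of the 80 was 0.09. The 3 members were all at least 2-fold higher by name, with log2 ratios of 1.54 (1.44 to 1.65) for oar-mir-200a, 2.20 (2.05 to 2.35) for oar-mir-200b and 2.20 (2.06 to 2.35) for oar-mir-200c. Rows with both names held most reads of oar-mir-200b and oar-mir-200c in these libraries, so their ratios by name are not separate values. By letters the ratios were 1.43 (1.31 to 1.55), 1.38 (1.33 to 1.43) and 2.17 (1.96 to 2.38) for miR-200a, miR-200b and miR-200c. The miR-200b ratio was the one that changed most between the counts. Scaled by all reads, 52 of the 80 named miRNAs were at least 2-fold higher in OVER than in RES and 1 was lower.

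**Figure D2:**
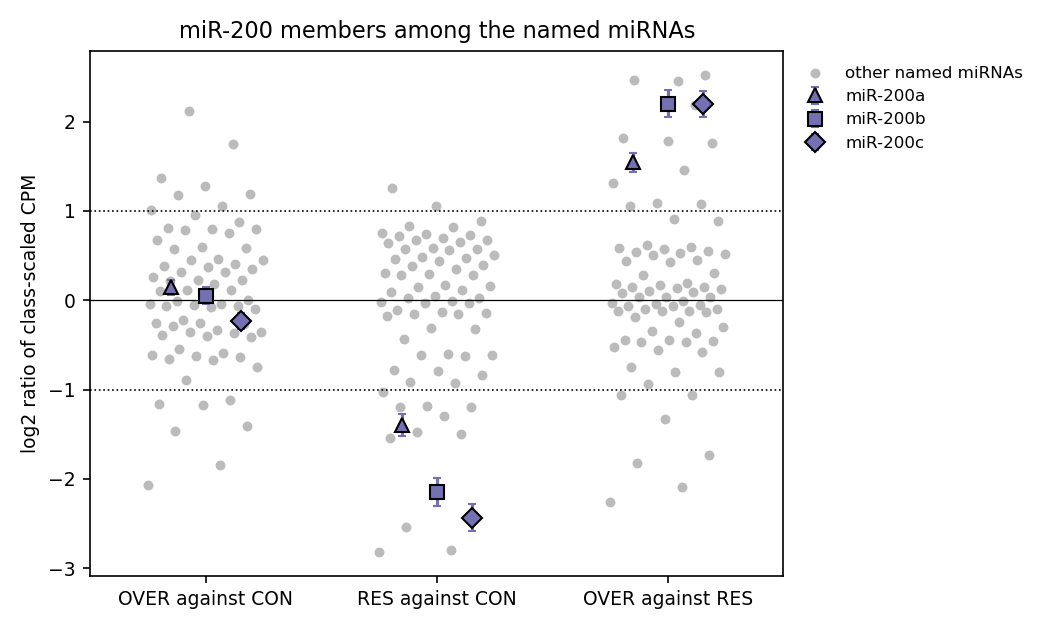
Log2 ratios of class-scaled CPM for the 3 members by name (purple symbols with exact 95% counting intervals) and for the other named miRNAs that reached 100 reads over both libraries (grey points, spread sideways for legibility). Dotted lines mark 2-fold. The members lie near 0 for OVER against CON, at -1.40, -2.15 and -2.43 for RES against CON, and at 1.54, 2.20 and 2.20 for OVER against RES.

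Named miRNAs were ranked by the Euclidean distance of their 2 ratios against CON from the mean of the members, all by name. The 5 nearest among 70 compared were oar-let-7b, oar-mir-181a-1, oar-mir-221, oar-mir-181a-2 and oar-mir-23b. Their log2 ratios of RES over CON ran from -2.82 to -1.19 and those of OVER over CON from -0.36 to 0.57. Oar-mir-181a-1 and oar-mir-181a-2 had nearly the same counts, 137 and 143 reads in OVER, 22 and 19 in RES and 89 and 93 in CON. A row with both names would count for each, so they may not be separate cases. The nearest, oar-let-7b, a let-7 miRNA of differentiated tissues, had 1736 reads in OVER, 461 in RES and 887 in CON. Oar-mir-221, a miRNA of vessel wall and other stroma, had 627 reads in OVER, 83 in RES and 400 in CON. The 2 ratios share the CON library, so this likeness rests on 3 libraries. It also rests on the members' ratios by name. By letters, miR-200b and miR-200c stood at -0.77 and -0.88 in OVER over CON, and the ranking was not repeated with these.

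Both arms of the hairpin were read for miR-200a and miR-200b. The printed sequences are the most read 5′ arm forms, again with the seed in capitals.
miR-200a-5p, 22 nt: cATCTTACcggacagtgctgga
miR-200b-5p, 22 nt: cATCTTACtgggcagcattgga
The 2 arms had the same seed, ATCTTAC, which differs from both 3′ arm seeds. MiR-200a-5p had 688 reads in OVER, 117 in RES and 321 in CON, and miR-200b-5p had 84 in OVER, 31 in RES and 73 in CON. The 5′ arm was 19.9% of miR-200a reads in OVER (18.6 to 21.3%), 13.5% in RES (11.3 to 16.0%) and 20.4% in CON (18.4 to 22.4%). For miR-200b it was 0.607% in OVER, 0.795% in RES and 0.611% in CON, with overlapping intervals. The 5′ arm was thus a sizeable part of miR-200a and a trace of miR-200b in all 3 libraries, and for miR-200a it was the smaller in RES.

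In RES the 5′ arms moved with the 3′ arms. The log2 ratio of RES over CON was -1.98 (-2.30 to -1.67) for miR-200a-5p and -1.76 (-2.42 to -1.14) for miR-200b-5p. In OVER against CON it was 0.12 (-0.07 to 0.32) for miR-200a-5p and -0.78 (-1.25 to -0.30) for miR-200b-5p. The 2 arms of each hairpin therefore stood on the same side of CON in RES, and in OVER the miR-200b arms stood below CON and the interval of the miR-200a 5′ arm spanned 0.

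A pair of read sets held letters 1 base away from a member over bases 1 to 17 and are shown because no annotation name other than those above sets them apart. The first had C9T against miR-200b and kept its seed, and its printed form also differed from miR-200b past base 17. The second had C17A against miR-200a and kept its seed. No list of mature miRNA sequences was at hand, so neither set was matched to a named miRNA such as miR-429 or miR-141.
C9T relative, 22 nt: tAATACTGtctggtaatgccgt
C17A relative, 21 nt: tAACACTGtctggtaaagatg
The C9T relative had 184 reads in OVER, 34 in RES and 82 in CON, nearly all without an ovine name, and its log2 ratio of RES over CON was -1.80 (-2.42 to -1.20). Its log2 ratio of OVER over CON was 0.19 (-0.20 to 0.58). The C17A relative had 32 reads in OVER, 4 in RES and 11 in CON, most of them annotated as oar-mir-200a, with a log2 ratio of RES over CON of -1.99 (-4.09 to -0.23). Both sets were thus lower in RES than in CON, like the 3 members whose seeds they share.

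Most 3′ arm reads ended at base 23 or 24 for miR-200b and miR-200c, and at base 21, 22 or 23 for miR-200a. MiR-200a ended at base 21 in 50.7% of its reads in OVER, 34.8% in RES and 27% in CON, and at base 23 in 20.4% in OVER, 27.5% in RES and 46.0% in CON. The most read form of miR-200a was therefore the 21 nt one in OVER and RES, with 1386 and 259 reads, and the 23 nt one in CON, with 561 reads. A short form ending at base 17 made up 9.61% of miR-200a in RES (7.60 to 12%), against 3.04% in OVER and 2.15% in CON.

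MiR-200b ended at base 24 in 29.2% of its reads in OVER, 43.0% in RES and 38.5% in CON, and at base 21 in 11.2% in OVER, 6.23% in RES and 4.06% in CON. MiR-200c ended at base 23 in 77.2% of its reads in OVER, 80.6% in RES and 77.2% in CON, the narrowest of the 3 distributions. At base 24 it ended in 7.32% of its reads in OVER, 11.8% in RES and 16.4% in CON. All 3 members thus had more reads ending at base 24, and fewer ending at base 21, in CON than in OVER.

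**Figure D3:**
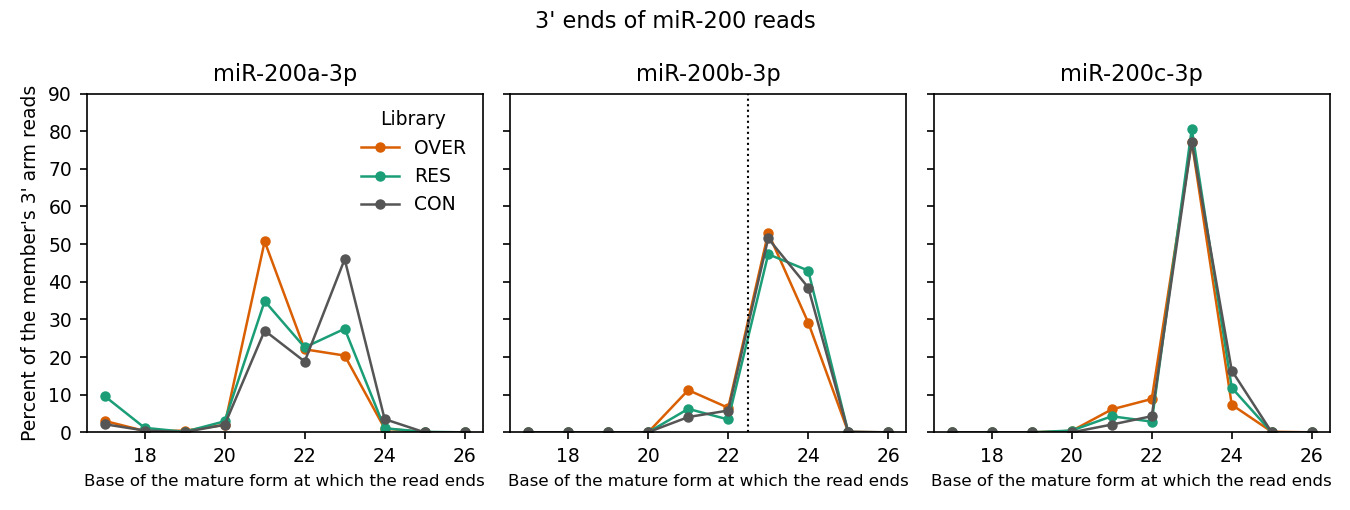
Percent of each member's 3′ arm reads, counted by letters, by the base of the mature form at which the read ends, in OVER, RES and CON. The dotted line in the miR-200b panel separates named reads, which end at base 22 or before, from those without an ovine name. MiR-200a has its peak at base 21 in OVER (50.7%) and RES (34.8%) and at base 23 in CON (46.0%).

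Counted by letters, the share of reads of 21 nt or shorter was 56.6% in OVER, 49.0% in RES and 31.7% in CON for miR-200a. For miR-200b it was 11.3% in OVER, 6.34% in RES and 4.14% in CON, and for miR-200c 6.32% in OVER, 4.74% in RES and 2.06% in CON. This order was that of the whole miRNA class, where the share was 28.3% in OVER, 26.5% in RES and 22.2% in CON. The share was also taken by name for 56 named miRNAs with at least 100 reads in each library, members included. Of these, 50 had a larger short share in OVER than in CON and 40 a larger one in RES than in CON. The members' shift to short forms in OVER and RES was thus in the direction of most miRNAs of these libraries. By name, the same shares were 48.6%, 44.1% and 27.5% for oar-mir-200a, 64.0%, 64.8% and 43.1% for oar-mir-200b and 57.1%, 55.3% and 29.8% for oar-mir-200c in OVER, RES and CON.

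Because the libraries differed in read length, each member was also compared among miRNA reads of its own length. These ratios use no TMM factor, unlike those above. Over the whole class, leaving the factor out moved log2 ratios by 0.26 in OVER against CON and -0.34 in RES against CON. RES stayed below CON for all 3 members at each length from 21 to 24 nt. MiR-200b at 23 nt was 0.482% of the miRNA reads of that length in RES and 2.14% in CON, 4.44-fold lower, and miR-200a at 21 nt was 0.0992% in RES and 0.261% in CON, 2.63-fold lower. MiR-200c at 23 nt was 0.0387% in RES and 0.289% in CON, 7.46-fold lower. The fold was larger at some other lengths, 9.19-fold lower for miR-200b and 18.9-fold lower for miR-200c at 22 nt, and 7.73-fold lower for miR-200a and 11.5-fold lower for miR-200c at 24 nt. The miR-200c value at 22 nt rests on 6 reads in RES and 52 in CON, and the miR-200a value at 24 nt on 8 reads in RES and 44 in CON. RES was thus lower at all 4 lengths, by a fold that varied with the length.

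For OVER against CON the sign changed with the length for miR-200a and miR-200b, on this scale without a TMM factor. At 21 nt miR-200a was 0.553% of the miRNA reads in OVER and 0.261% in CON, a log2 ratio of 1.08 (0.91 to 1.26), and miR-200b was 0.612% in OVER and 0.373% in CON, a log2 ratio of 0.71 (0.57 to 0.86). At 24 nt miR-200a was 0.0343% in OVER and 0.0714% in CON, a log2 ratio of -1.06 (-1.80 to -0.33), and miR-200b was 3.57% in OVER and 5.95% in CON, a log2 ratio of -0.74 (-0.81 to -0.67). At 22 nt the members differed, with a log2 ratio of 0.40 (0.18 to 0.63) for miR-200a and -0.47 (-0.60 to -0.33) for miR-200b. MiR-200c had 0.66 (-0.01 to 1.37) at 21 nt and 0.18 (-0.30 to 0.68) at 22 nt, with intervals that span 0, and -0.33 (-0.46 to -0.20) at 23 nt and -1.39 (-1.76 to -1.04) at 24 nt. All 3 members were thus lower in OVER at 23 and 24 nt, and miR-200a and miR-200b were higher at 21 nt.

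**Figure D4:**
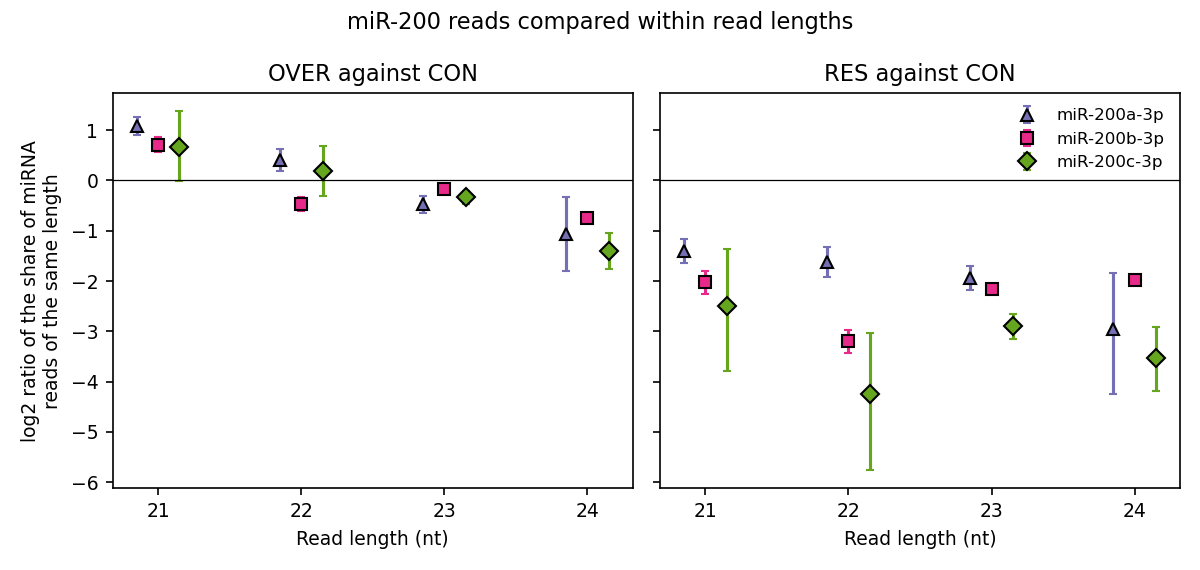
Log2 ratio of each member's share of miRNA reads of the same length, for OVER against CON (left) and RES against CON (right), at read lengths of 21 to 24 nt, with exact 95% counting intervals. All points for RES against CON lie below 0. For OVER against CON, miR-200a runs from 1.08 at 21 nt to -1.06 at 24 nt.

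The 5′ end fixes the seed, and miR-200b was the one member whose 3′ arm often started at base 2. The most read of these reads is printed with its seed, which is moved by 1 base, in capitals.
miR-200b-3p starting at base 2, 23 nt: aATACTGCctggtaatgatgact
It had 926 reads in OVER, 279 in RES and 701 in CON. In all, 10.3% of miR-200b-3p reads started at base 2 in OVER (9.80 to 10.8%), 10% in RES (9.11 to 11%) and 8.0% in CON (7.51 to 8.5%). For miR-200a-3p and miR-200c-3p this share was at most 0.761% in any library. Among the 3′ arms the shifted form was thus a feature of miR-200b in all 3 libraries. Its share was a little higher in OVER and RES than in CON. The miR-200a 5′ arm started at base 2 about as often, in 69 of 688 reads in OVER, 12 of 117 in RES and 35 of 321 in CON. No read of the miR-200b 5′ arm did so in any library.

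The base at the end of the 24 nt form varied. Of the miR-200b-3p reads that ended at base 24 and started at base 1, 62.5% ended with T in OVER, 68.3% in RES and 71.2% in CON, and 25.0% ended with A in OVER, 24.1% in RES and 19.3% in CON. Base 23 was C in 98.6% of the reads that ended there in OVER, 98.8% in RES and 98.5% in CON. The variation thus began at the base after the 23 nt form.

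One single-base change stood out within miR-200b. Over bases 1 to 17, reads with A5G, which changes the seed, are shown with the changed base in capitals.
miR-200b-3p with A5G, 23 nt: taatGctgcctggtaatgatgac
This sequence alone had 461 reads in OVER, 120 in RES and 378 in CON. Together with other lengths, A5G was found in 568 reads in OVER, 142 in RES and 465 in CON. As a share of reads with either base it was 4.40% in OVER (4.05 to 4.77%), 3.89% in RES (3.29 to 4.57%) and 4.08% in CON (3.73 to 4.46%). C9T and T11G were left out of this search, since they are the letters of the relative described above and of miR-200c. Of the other single-base changes over bases 1 to 17 of miR-200b, none but A5G passed 0.114% in any library. The A5G shares had overlapping intervals among the 3 libraries.

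Neither of the other members showed it at that level. MiR-200a had 2 reads with A5G in OVER and none in RES or CON, and miR-200c, which has the same first 10 bases as miR-200b, had none in any library. The upper limit for miR-200c was 0.284% in OVER, 1.72% in RES and 0.298% in CON. Within miR-200b the share depended on the length: it was 6.16% at 23 nt in OVER, 6.38% in RES and 5.93% in CON, and 1.52% at 24 nt in OVER, 0.662% in RES and 1.25% in CON. The deposited genome flag marked 524 of the 568 A5G reads in OVER, 132 of 142 in RES and 419 of 465 in CON as matching the genome. What gives rise to these reads was not tested, and no genome was at hand to look for another place with the same letters.

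**Figure D5:**
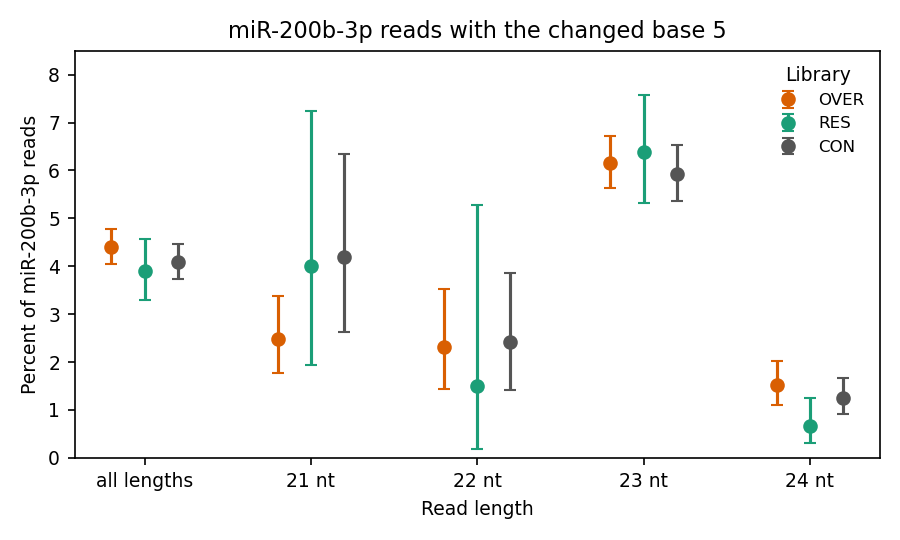
Percent of miR-200b-3p reads with the changed base 5 in OVER, RES and CON, over all lengths and at 21, 22, 23 and 24 nt, with exact 95% counting intervals. The 3 libraries overlap over all lengths, at 4.40%, 3.89% and 4.08%, and the 23 nt reads lie above the 24 nt reads in each library.

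Markers of the cell types that semen can hold were set beside the family. The lists were looked up by ovine name only, so reads with just the class name miRNA did not count for them. Of 8 other epithelial miRNAs listed, 1 carried an ovine name, oar-mir-194, with 498 reads in OVER, 330 in RES and 144 in CON. Its log2 ratio was 0.81 for OVER over CON and 0.67 for RES over CON, so in RES it lay above CON where the 3 miR-200 members lay below. Of 7 stromal and muscle miRNAs, 4 carried a name, with a summed CPM of 449 in OVER, 129 in RES and 575 in CON. The 2 of them with enough reads to compare, oar-mir-143 and oar-mir-221, were both at least 2-fold lower in RES, at -1.19 and -2.80. Oar-mir-221 alone made up most of the sum, with a CPM of 372 in OVER, 67.4 in RES and 468 in CON. Oar-mir-199a had 28 reads in OVER, 9 in RES and 10 in CON. Oar-mir-133 of muscle had 0 reads in OVER, 17 in RES and 2 in CON.

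Of 5 germ cell miRNAs, 2 carried a name, oar-mir-22 and oar-mir-191, which are also found in other tissues, with a summed CPM of 44960 in OVER, 89746 in RES and 56126 in CON. In RES over CON they stood at 0.50 and 0.70, and in OVER over CON at 1.05 and -0.64. Of 6 blood cell miRNAs, 1 carried a name, oar-mir-150 of lymphocytes, with 10 reads in OVER, 37 in RES and 12 in CON. The stromal sum, mostly oar-mir-221, was thus lowest in RES together with the miR-200 family, while oar-mir-133 of that list had its most reads in RES. The germ cell miRNAs were not, nor was oar-mir-194, the only other epithelial miRNA with a name. The C9T and C17A relatives above, which are not in these counts, were lower in RES than in CON, at -1.80 and -1.99. The part that other cell types had in these values was not tested.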

How the data were processed

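Small RNA from sperm of F1 rams was sequenced in 9 labelled samples, 3 in each of 3 groups. The deposited tables list distinct sequences of 15 to 42 nt with the authors' read counts, which are whole numbers with no normalization, a genome flag and an annotation. The submitters' processing notes name edgeR, and none of the sources used here gives the aligner, annotation tool or build. Since the 3 tables of a group hold the same counts, 1 of them stood for the group, and the edgeR quasi-likelihood test that had been planned for tables that differ was not run.

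Reads annotated as miRNA formed the miRNA class. The class was scaled by TMM factors over named miRNAs in edgeR 4.0.16, with DESeq2 1.42.0 size factors as an alternative, and all else used Python 3.11.15, SciPy 1.17.1 and pandas 2.3.3. Ratios were compared among miRNAs that reached 100 reads over both libraries, and "called" meant at least 2-fold apart. Intervals are exact Clopper-Pearson 95% intervals. The calculation was checked on simulated counts. Reads by letters held bases 3 to 17 of a mature form, without mismatch except where a substitution is named. The genes named were the members, their up to 5 most read forms and relatives 1 base away over bases 1 to 17. Also named were the 5 most alike miRNAs and the 3 highest and lowest in RES against CON. Members and lists were chosen with earlier results of these data known. PCR copies were not told apart from molecules.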

Additional observations from a re-analysis of the deposited data

How the results depend on the processing

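For the 3 members, RES stayed at least 2-fold below CON and OVER at least 2-fold above RES in every setting listed here, and in the settings that changed nothing beyond counting error (DESeq2 size factors, and sequences flagged as matching the genome). For OVER against CON none was 2-fold apart in any setting except with all reads as the library size. The values below are log2 ratios for the members in the order a, b, c where these moved, and the cause of a move was not tested unless the setting itself makes it.

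With all reads as the size, OVER against CON gave 1.39, 1.30 and 1.01, RES against CON gave -1.27 for oar-mir-200a, and OVER against RES gave 2.66, 3.32 and 3.32. That setting shifted the median of all named miRNAs by 1.25 in OVER against CON, 0.13 in RES against CON and 1.12 in OVER against RES, and 49 of 76 named miRNAs in OVER against CON and 53 of 80 in OVER against RES were then 2-fold apart. With the miRNA class total and no TMM factor, OVER against CON gave 0.41, 0.31 and 0.027, RES against CON gave -1.74, -2.49 and -2.77, and OVER against RES gave 2.14, 2.80 and 2.80. This shifted the medians by 0.26, -0.34 and 0.60 in these 3 comparisons, and 2-fold calls split into 15 higher and 4 lower, 0 higher and 19 lower, and 29 higher and 4 lower. TMM factors from only the libraries compared gave 1.39, 2.05 and 2.04 for OVER against RES.

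With reads split equally among the names of a row, oar-mir-200a stood at 0.31 in OVER against CON, oar-mir-200b and oar-mir-200c at -2.39 and -2.72 in RES against CON, and the 3 members at 1.76, 2.40 and 2.40 in OVER against RES. With rows of a single miRNA name, OVER against CON gave 0.38, -0.35 and -0.72, RES against CON gave -2.81 and -3.18 for oar-mir-200b and oar-mir-200c, OVER against RES gave 1.88, 2.46 and 2.46, and 10 named miRNAs of 63 were 2-fold apart in RES against CON. Reads of 18 to 24 nt moved oar-mir-200a to -1.52 in RES against CON and 1.70 in OVER against RES, and the family to 0.509% of miRNA reads in CON. A count by the first 8 bases of the main form gave -1.28 and 1.43 for oar-mir-200a in RES against CON and OVER against RES. With a minimum of 1 read, 25 of 104 named miRNAs were 2-fold apart in OVER against CON.

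The count by letters, chosen after seeing the data, gave -0.77 for oar-mir-200b and -0.88 for oar-mir-200c in OVER against CON, -1.27 for oar-mir-200a and -3.05 for oar-mir-200c in RES against CON, and 1.43 and 1.38 for oar-mir-200a and oar-mir-200b in OVER against RES. Family shares of miRNA reads by letters were 1.35% in OVER, 0.325% in RES and 1.76% in CON. Of all reads in the library, the family by name was 0.0897% in OVER, 0.0115% in RES and 0.0413% in CON.

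The share of reads of 21 nt or shorter depended most on the counting. By letters it was 56.6% in OVER, 49.0% in RES and 31.7% in CON for oar-mir-200a, 11.3%, 6.34% and 4.14% in OVER, RES and CON for oar-mir-200b, and 6.32%, 4.74% and 2.06% for oar-mir-200c. In rows naming that member only it was 9.70% in OVER, 15.6% in RES and 8.12% in CON for oar-mir-200b, and 0.327% in OVER, 0.490% in RES and 0.251% in CON for oar-mir-200c.

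No paired analysis was possible because the 3 tables of a group hold the same counts, and for the same reason leaving out a replicate gives the values already reported. Depth limits several RES values, which rest on 211 reads for miR-200c-3p by letters, 117 for miR-200a-5p, 34 for the C9T relative, 31 for miR-200b-5p and 4 for the C17A relative. A count of 0 allows up to 0.362 RPM in OVER, 0.228 RPM in RES and 0.300 RPM in CON, the level of 3 reads.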
